A study of Homo sapiens with 8 samples.

Results

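The genes described here encode proteins that the liver secretes into the blood: carrier proteins, apolipoproteins, clotting factors, protease inhibitors and acute phase proteins. The list held 44 genes, and its members were the probe sets that the platform annotation gave to exactly 1 of these symbols. This rule found 82 of the array's 54675 probe sets, for 41 of the 44 genes and of the 19775 genes that had a probe set of their own. GC was not listed in the annotation used here, and VTN and ORM2 appeared in it only on probe sets shared with another gene. HepG2, a human hepatocellular carcinoma cell line that keeps many hepatocyte functions, was first deprived of serum. It was then kept in serum-free medium, either with 3 µM quercetin, a plant flavonol, or without it as the control. RNA was taken at 2, 4, 12 and 24 h, which gave 4 quercetin and 4 control Affymetrix arrays, 1 for each treatment at each time. All cells thus shared the line and the serum deprivation, for which the series text and the sample text give unlike lengths. No condition had a second array and nothing in the labels says that times came from separate cultures, so p-values measure only the spread between these 8 arrays.

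Hepatocytes make most of the protein in blood plasma. Albumin and other carriers hold osmotic pressure and transport metals, retinol and hormones, apolipoproteins organise lipoprotein particles, and clotting factors are balanced by inhibitors such as antithrombin. In inflammation, interleukin-6 and related cytokines raise the positive acute phase proteins, among them fibrinogen and SERPINA1, while negative ones such as albumin and transthyretin fall. Transcription of these genes in the liver depends on factors that include HNF1, HNF4, C/EBP and FOXA proteins. The encoded proteins enter the endoplasmic reticulum and leave through the Golgi.

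Promoter sequence, from 250 bases before to 50 bases after the start of the gene, was at hand for 33 of the 44 genes in a RefSeq table for GRCh38.p14. Only the 250 bases before the start were searched for motifs. The palindrome bound by HNF1 (GTTAAT and ATTAAC on either side of 1 free base), searched with up to 2 mismatches, was found in 7 of these 33 promoters (21.2%), those of AFP, ALB, APOH, APOM, F2, FGA and FGB. It was found in 1.25% of all 27305 promoters in the table. Because it is a palindrome, each site matched on both strands. The C/EBP motif TTNNGNAA, searched on both strands, was in 42.4% of the members' promoters and 33.6% of all. The HNF4 motif CAAAGTCCA with up to 1 mismatch, on both strands, was in 12.1% and 5.95%, and TATAAA on the gene's strand was in 9.09% and 7.17%. A match describes letters and is not evidence of binding. The stretches around the HNF1 matches nearest the start are shown for ALB, FGA and FGB, which had probe sets that passed a test between times, and for AFP, the fetal relative of ALB that lies close to it on chromosome 4. Capitals mark the HNF1 match, and the coordinates are chr4:73404216-73404248 (plus strand) for ALB, chr4:73436150-73436182 (plus) for AFP, chr4:154590779-154590811 (minus) for FGA and chr4:154562912-154562944 (plus) for FGB.
ALB: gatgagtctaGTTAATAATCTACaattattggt
AFP: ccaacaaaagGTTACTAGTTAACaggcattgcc
FGA: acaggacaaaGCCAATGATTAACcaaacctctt
FGB: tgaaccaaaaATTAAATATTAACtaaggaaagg
The match began 61 bases before the start in both ALB and AFP, 59 in FGA and 58 in FGB. The 250 bases before ALB (chr4:73404037-73404286, plus strand) are shown whole because they also held 4 C/EBP matches, which are in capitals with the HNF1 match and did not overlap it.
ALB promoter: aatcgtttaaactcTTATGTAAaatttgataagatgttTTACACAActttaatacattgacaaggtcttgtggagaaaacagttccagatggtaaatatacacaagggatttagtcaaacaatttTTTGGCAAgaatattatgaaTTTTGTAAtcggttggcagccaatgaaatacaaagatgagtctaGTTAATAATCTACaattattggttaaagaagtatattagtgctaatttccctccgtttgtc

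Values were log2 signals made by RMA, which corrects and summarises the probes of each probe set. They ran from 4.56 to 15.31, and a difference of 1 is a doubling of signal. Array medians lay between 7.36 and 7.48, and the 99th percentile of an array ranged from 12.79 (control, 12 h) to 13.27 (control, 24 h), so the arrays did not share the top of their scale. The SD of an array ranged from 1.74 (quercetin, 4 h) to 1.95 (control, 24 h). The RMA settings are not stated, and the deposited values may not be quantile normalized. The spike-in hybridisation controls, bacterial transcripts added with the hybridisation mix, were low on the control array at 2 h (11.24) and on both arrays at 12 h (11.35 with quercetin and 11.19 in control) and lay between 11.83 and 12.11 on the other 5. Of the hepatocyte markers, ALB, AFP, APOA1, TTR, SERPINA1 and FOXA2 lay at the 93.99th percentile of all probe sets or above. Fewer markers of other cells passed the filter described next, 5 of 8 leukocyte, 5 of 9 fibroblast and 3 of 8 endothelial genes, with median levels of 7.83, 8.22 and 7.08. The biliary and progenitor markers had 6 of 7 above it, but their levels were spread widely. SPP1 was at 14.09, SOX9 at 13.69, EPCAM at 12.88, KRT19 at 11.19, KRT7 at 9.33 and AQP1 at 7.44. CFTR, at 6.76, was below the filter. In cell extracts, fewer cells that express a gene and less RNA per cell cannot be told apart.

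Of the 82 probe sets, 70 had a mean above the median of all probe sets (7.43) and were tested, and they covered 39 genes. The 12 dim ones included every probe set of PON1, a lactonase of high density lipoprotein (6.43 and 6.47), and of FETUB, a fetuin protease inhibitor (6.14 to 7.27). The values nearest this limit were 7.44 for KNG1 (217512_at) and 7.49 for F5 (231029_at) inside it, and 7.33 for PLG (209977_at) and 7.27 for FETUB (210520_at) outside it. At the other end, 26 member probe sets of 20 genes had a mean above 12.97, the 99th percentile of all probe sets. They were 7 of 16 carrier, 7 of 18 apolipoprotein, 2 of 21 clotting, 5 of 12 inhibitor and 5 of 15 acute phase probe sets. SERPIND1 (13.41) and SERPINA5 (13.48) were just inside this limit, and APOE (12.89) and APOM (12.64) just outside it.

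Probe sets at the top of the scale varied little between arrays. Their SD over the 8 arrays ran from 0.049 to 0.250 with a median of 0.106, against 0.128 to 1.17 with a median of 0.290 for the other 44 tested member probe sets. The same contrast held for the whole array, with a median SD of 0.149 for the 547 probe sets above the 99th percentile and 0.256 for tested probe sets below it. SERPINA1, the elastase inhibitor alpha-1-antitrypsin, ranged over 0.156 in its brightest probe set (211429_s_at), with a mean of 15.09. The brightest ALB probe set (211298_s_at) lay at 15.08, 15.07, 15.03 and 15.10 at 2, 4, 12 and 24 h with quercetin and at 15.09, 15.04, 14.91 and 15.12 in control. These values lay within 0.21 of each other, while a dimmer ALB probe set (214837_at) ranged over 1.83. RMA values carry no flag for saturation, so the position on the scale is the only measure of it here, and whether these probe sets were near saturation was not tested.

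**Figure D1:**
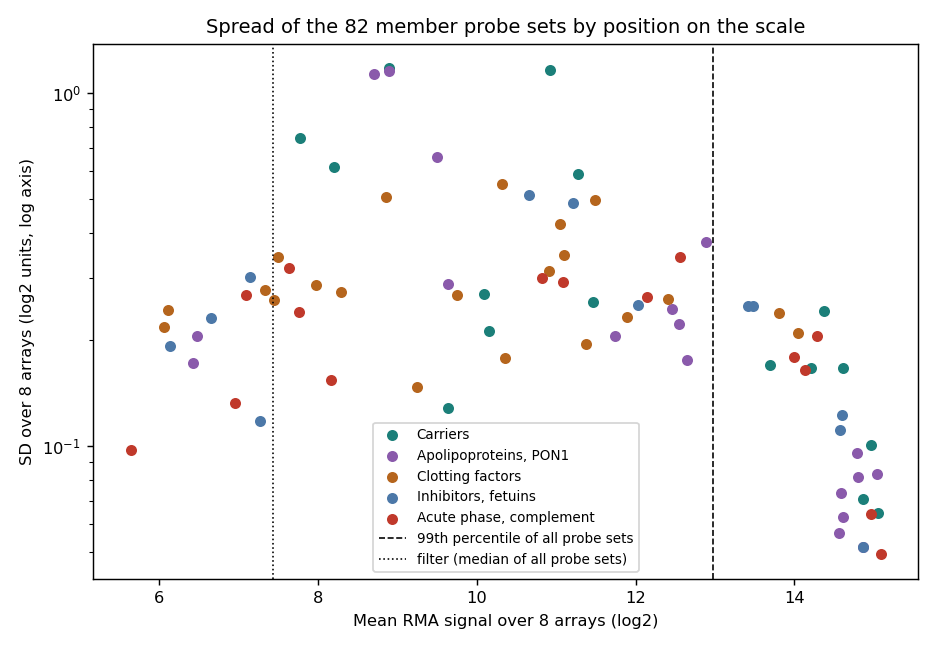
The SD of each of the 82 member probe sets over the 8 arrays (vertical, log axis) is plotted against its mean log2 signal (horizontal), coloured by role, with the filter at 7.43 and the 99th percentile at 12.97 as vertical lines. The 26 probe sets right of the 99th percentile have SDs of at most 0.250, and 4 dimmer probe sets exceed 1.

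No member probe set was called for the mean quercetin difference over the 4 times. Differences of opposite sign at different times cancel in this mean, and a second fit described below compares late with early times. The mean difference over the 4 times was tested with limma, time as a block and Benjamini-Hochberg adjustment over all 27300 tested probe sets. It called 0 of 70 member probe sets at an adjusted p under 0.05, and 0 of all (0%). The smallest adjusted p was 0.906 among members and 0.0622 in all. At an unadjusted p under 0.05 there were 5 member probe sets, against 5.08% of all. All 5 were lower with quercetin: ALB 214837_at (-0.41 ± 0.12, SE), TF 214064_at (-0.39 ± 0.13), KNG1 217512_at (-0.36 ± 0.14), F5 231029_at (-0.29 ± 0.13) and FGA 205649_s_at (-0.24 ± 0.11). The other tested probe sets of ALB, TF, F5 and FGA differed by -0.13 to 0.32, and that of KNG1 by -0.28 ± 0.18.

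Over the 4 times 37 of the 70 probe sets were higher and 33 lower, with a median difference of 0.01, against -0.02 over all tested probe sets. The medians of the roles were 0.01 for carriers, 0.04 for apolipoproteins, -0.08 for clotting factors, -0.05 for inhibitors and 0.02 for acute phase proteins. The median over members turned to -0.01 both with median centring and with quantile normalization. Quercetin values were below control at all 4 times for 12 member probe sets, against a background of 8.47%, and 8 of the 12 were among the 18 tested clotting probe sets. These 8 were of F5 (231029_at), FGA (205649_s_at), both of FGB, FGG, KNG1 (217512_at), PROC and PROS1. The count of 8 was 10 with median centring, 5 with quantile normalization and 3 with cyclic loess. FGG, the gamma chain of fibrinogen, had quercetin minus control differences of -0.06, -0.09, -0.03 and -0.10 at 2, 4, 12 and 24 h, of the size of the fit's error (mean -0.07 ± 0.06). PROC, the zymogen of activated protein C, had a mean difference of -0.14 ± 0.10 and PROS1, its cofactor protein S, of -0.19 ± 0.12. Quercetin values were above control at all 4 times for 1 member, APOA2 219465_at (mean 0.05 ± 0.05), against 4.62% of all.

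At a single time the comparison is of 1 array with 1 array, so sizes are given without a test. At 2, 4, 12 and 24 h, 27, 30, 47 and 13 of the 70 member probe sets were higher with quercetin than in control, against 42.6%, 46.2%, 58.4% and 36.5% of all tested probe sets. At 12 h the higher ones were 11 of 16 carrier, 13 of 16 apolipoprotein, 7 of 18 clotting, 6 of 8 inhibitor and 10 of 12 acute phase probe sets, and at 24 h they were 3, 4, 1, 1 and 4. The median member difference was -0.04, -0.02, 0.08 and -0.10 at the 4 times. These counts moved with the scaling: after quantile normalization they were 33, 33, 27 and 22 of 70, and after cyclic loess 48, 43, 21 and 26. Within the 12 h pair the array's 99th percentile was 12.98 with quercetin and 12.79 in control, and the 3′ minus 5′ difference of ACTB, a measure of RNA integrity, was 0.88 and 1.40. The part of these array differences in the 12 h values was not tested.

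Differences of at least 1 were few. At 2 h there were 6 member probe sets higher with quercetin by at least 1 (0.308% of all tested) and 0 lower (0.714%), 3 of carriers and 3 of apolipoproteins, all of them dimmer second probe sets described below. At 4 h 1 was lower (0.033%) and 0 were higher (0.0623%). At 12 h 1 was higher (0.689%) and 0 were lower (0.0476%). It was F5, the cofactor that factor X needs to activate prothrombin, whose probe set 204713_s_at lay at 11.67 with quercetin and 10.31 in control. The control value stood apart, since the other 7 arrays lay between 11.31 and 11.90, and the other F5 probe sets differed at 12 h by 0.01 (204714_s_at) and -0.36 (231029_at). At 24 h 1 was higher (0.242%) and 4 were lower (0.253%), again second probe sets. KNG1, kininogen, from which the peptide bradykinin is released, came close at 24 h, with 9.03 in quercetin and 9.997 in control cells in 206054_at.

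**Figure D2:**
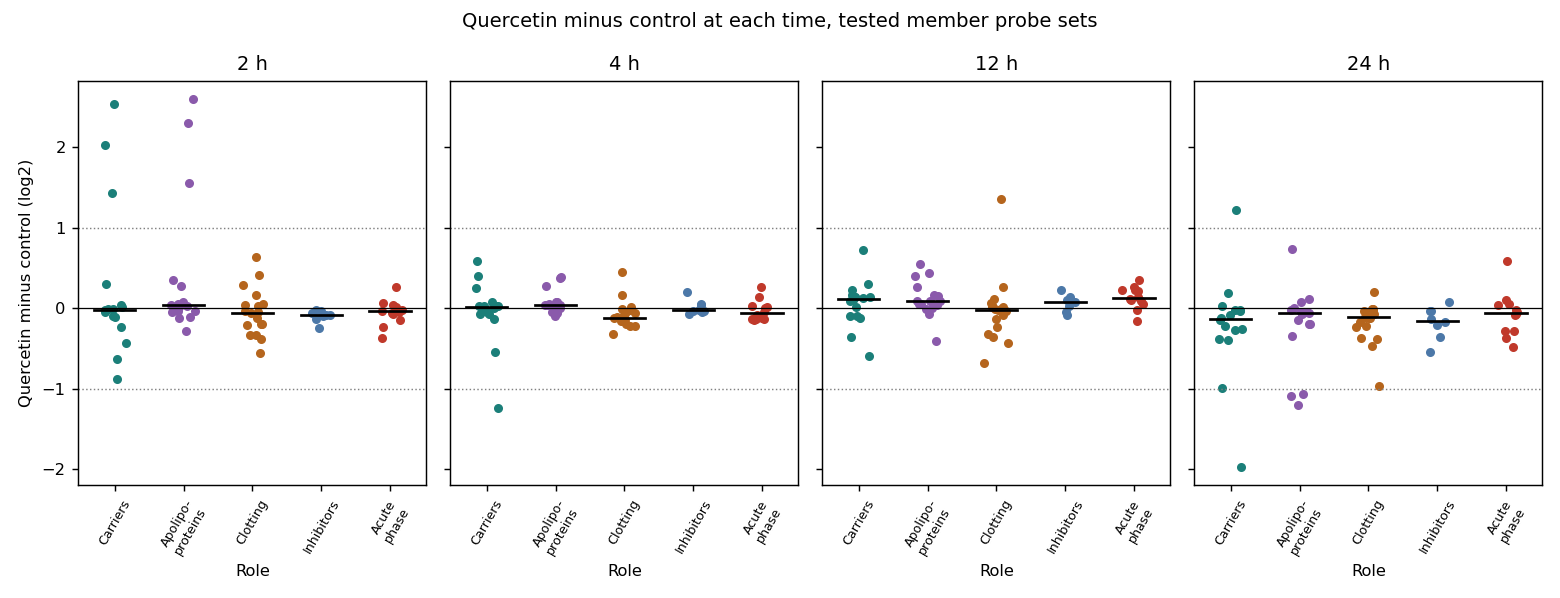
Each point is the quercetin minus control difference (log2, vertical) of 1 tested member probe set at 2, 4, 12 or 24 h, grouped by role, with role medians as short black lines and differences of 1 and -1 dotted. Most points lie within 0.5 of 0, and the 6 points above 1 at 2 h belong to carriers and apolipoproteins.

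Between 2 and 24 h in serum-free medium, members were called higher at a share near that of all tested probe sets. With the values as deposited, none was called lower. An F-test over the 4 times called 32 of the 70 member probe sets, against 29.3% of all. In the same fit, treatment kept as a term, 9 member probe sets of 7 genes were called higher at 24 h than at 2 h (12.7% of all tested probe sets) and 0 were called lower (4.15%). They were 2 carrier, 1 apolipoprotein, 4 clotting, 2 inhibitor and 0 acute phase probe sets, of ALB, APOE, F5, FGB, KNG1, PROS1 and SERPINC1. Both 24 h arrays lay above both 2 h arrays for 31 of 70 member probe sets (33.8% of all) and below them for 6 (21.1%). The median difference was 0.07 over members and 0.06 over all tested probe sets. A share of 16.8% of all tested probe sets was called in either direction, so the members were not called more often than the rest. Other scalings changed the division: cyclic loess called 3 member genes higher and 4 lower, and quantile normalization 4 higher and 2 lower, with the members' median at -0.07 and -0.05. With the spike-in class as a block 6 member genes were called higher and 3 lower, ALB in both directions. The ACTB 3′ minus 5′ difference was on average 0.38 higher at 24 h than at 2 h and the 99th percentile 0.18 higher, and their part was not tested.

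SERPINC1 encodes antithrombin, the main inhibitor of thrombin and factor Xa, and both of its probe sets rose. In 1554491_a_at the signal was 10.23, 10.37, 10.58 and 11.34 at 2, 4, 12 and 24 h with quercetin, and 10.37, 10.17, 10.66 and 11.54 in control. The 24 h arrays were the highest in both arms and did not overlap with any earlier array. The mean was 11.44 at 24 h and 10.30 at 2 h, a difference of 1.14 ± 0.16 (SE) or 2.21-fold (limma, Benjamini-Hochberg adjusted p = 0.00053). In 210049_at the values were 10.94, 10.81, 11.10 and 11.78 with quercetin and 11.03, 10.77, 11.15 and 12.14 in control, with a difference of 0.98 ± 0.15 (limma, adjusted p = 0.000837).

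ALB, the main carrier and the most abundant plasma protein, gave a different size in each of its 4 probe sets. In 214837_at the signal was 10.39, 10.90, 11.02 and 11.96 with quercetin and 11.27, 11.04, 11.37 and 12.22 in control. Both 24 h values lay above all others, and the mean was 12.09 at 24 h and 10.83 at 2 h, a difference of 1.26 ± 0.17 or 2.40-fold (limma, adjusted p = 0.000418). In 1565228_s_at, near the top of the scale, the 24 h values of 14.69 (quercetin) and 14.72 (control) compared with 14.44 and 14.43 at 2 h, a difference of 0.28 ± 0.08 (limma, adjusted p = 0.0246). The brightest probe set, 211298_s_at, differed by 0.03 ± 0.07, and 214842_s_at, a probe set with a wide range, by -0.76 ± 0.45. No other carrier passed at 24 h: AFP, the fetal counterpart of ALB, differed by 0.17 ± 0.07, HPX, which binds heme, by 0.38 ± 0.19 and 0.24 ± 0.18, TTR, which carries thyroxine and RBP4, by 0.02 ± 0.18, and TF, the iron carrier, by -0.71 to 0.28 in 4 probe sets.

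Among apolipoproteins APOE, a ligand of lipoprotein receptors, was the 1 gene called. Its probe set 203381_s_at read 12.76, 12.67, 12.81 and 13.38 at 2, 4, 12 and 24 h with quercetin and 13.05, 12.60, 12.38 and 13.45 in control. Both 24 h arrays lay above the others (0.51 ± 0.14, limma, adjusted p = 0.0218), and the other APOE probe sets differed by 0.13 ± 0.14 and 0.30 ± 0.14. APOA1, the main protein of high density lipoprotein, differed by 0.16 ± 0.07 and 0.19 ± 0.07 in its bright probe sets. APOB, the structural protein of very low density lipoprotein, differed by -0.03 ± 0.08 and -0.22 ± 0.22, APOA2 by -0.05 ± 0.07 and -0.09 ± 0.07, and APOM, a carrier of sphingosine-1-phosphate, by -0.13 ± 0.12 and -0.03 ± 0.14.

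Among clotting factors PROS1, the gene of protein S, rose in its single probe set. It read 10.10, 9.67, 10.21 and 10.90 with quercetin and 10.44, 9.69, 10.22 and 11.27 in control, lowest at 4 h and highest at 24 h in both arms. The difference between 24 h and 2 h was 0.81 ± 0.17 (limma, adjusted p = 0.00558). FGB, the beta chain of fibrinogen, passed in 216238_s_at (0.60 ± 0.16, limma, adjusted p = 0.0212) but not in its brighter probe set (0.09 ± 0.12). In 216238_s_at the 24 h values were 11.60 with quercetin and 11.64 in control and the 2 h values 10.74 and 11.30. FGA and FGG, the other fibrinogen chains, differed by -0.21 to 0.06 and by 0.10 ± 0.08.

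F5 passed in 204714_s_at (0.48 ± 0.15, limma, adjusted p = 0.0416) and KNG1 in 206054_at (0.79 ± 0.26, limma, adjusted p = 0.0467). The KNG1 signal was 8.93, 8.55, 8.38 and 9.03 with quercetin and 8.51, 8.67, 8.81 and 9.997 in control. Its increase thus lay mainly in the control arm, and without the control array at 24 h the difference was 0.33 (adjusted p = 0.566). F2, prothrombin, differed by 0.02 ± 0.13, F10 by -0.16 ± 0.17, PROC by -0.02 ± 0.14 and PLG, plasminogen, by -0.42 ± 0.19 in the probe set tested. F7, which starts the tissue factor pathway, differed by 0.27 ± 0.18 and -0.12 ± 0.20. Of the 6 tested probe sets of vitamin K dependent factors (F2, F7, F10, PROC and PROS1), 1 was called higher and 0 lower. The shares of all tested probe sets were 12.7% and 4.15%.

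The remaining inhibitors and the acute phase genes had 0 calls at 24 h. A2M, a broad protease trap, differed by 0.04 ± 0.07, SERPINA5, the protein C inhibitor, by 0.23 ± 0.09, SERPIND1, heparin cofactor II, by 0.19 ± 0.10, and SERPINF2, the plasmin inhibitor, by -0.17 ± 0.16. AHSG, fetuin-A, differed by -0.06 ± 0.07 and -0.04 ± 0.08. C3, the central complement component, differed by 0.18 ± 0.09, C5 by 0.04 ± 0.15 and SERPINA3, antichymotrypsin, by -0.05 ± 0.10. Of 18 tested probe sets of positive acute phase genes 1 was called higher, the FGB one, against 12.7% of all tested probe sets. Of 17 of negative acute phase genes 2 were called higher, both of ALB. The medians of these 2 groups were 0.07 and 0.03.

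**Figure D3:**
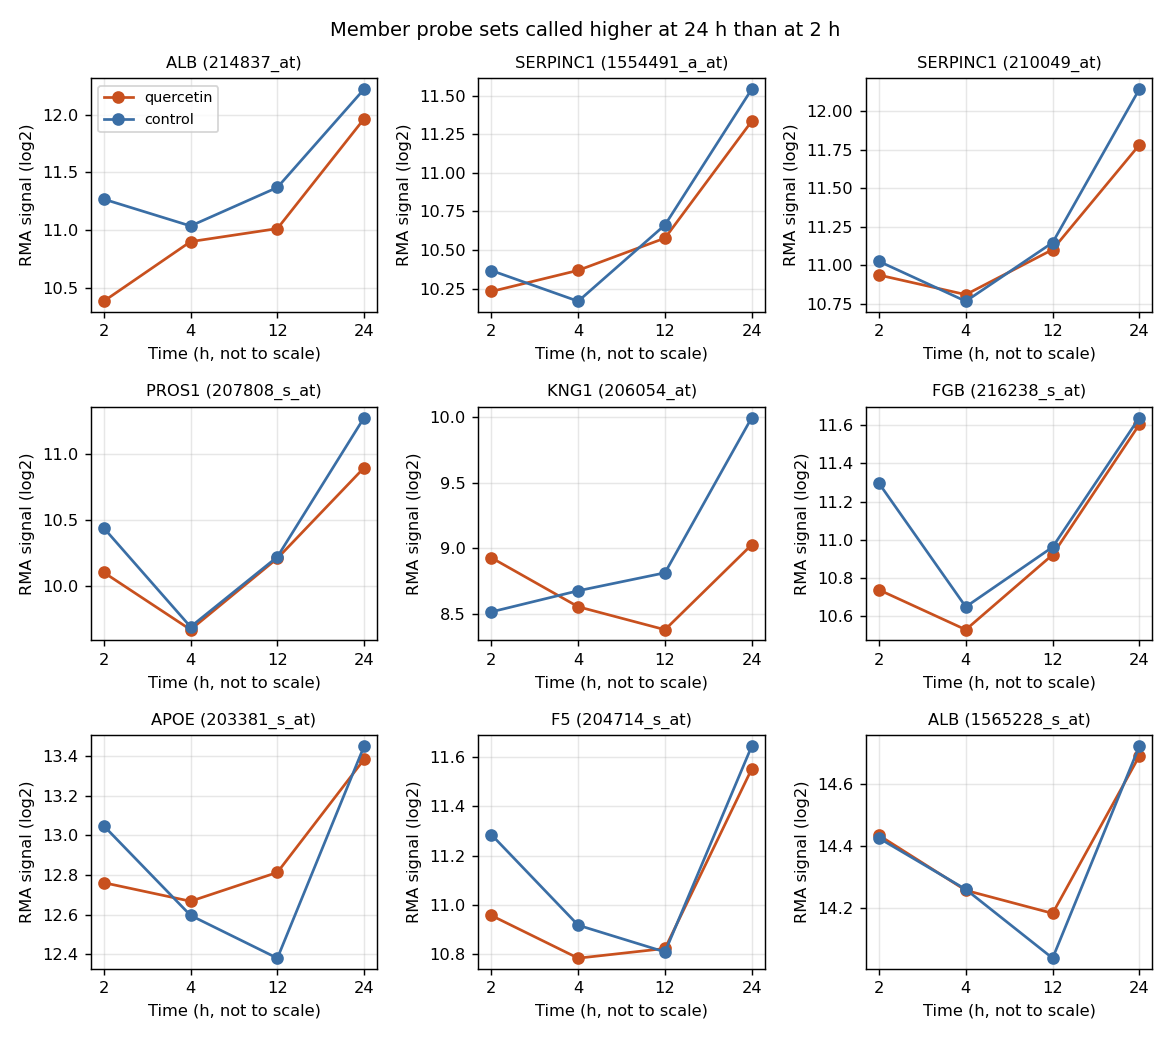
Log2 signal by time (not to scale) of the 9 member probe sets called higher at 24 h than at 2 h, with quercetin in orange and control in blue, 1 array per point and a vertical axis of its own in each panel. In each panel both 24 h points lie above both 2 h points, and in the KNG1 panel the control point at 24 h (9.997) stands above the quercetin point (9.03).

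The count at 24 h depended on single arrays. It was 2 genes, ALB and SERPINC1, without the control array at 24 h, and 12 genes without either 12 h array. Calls over all 27300 tested probe sets moved the same way. They were 4597 in the main fit and 5212 and 5229 without the control or the quercetin array at 12 h. Without the control array at 24 h they were fewer than in the main fit. ALB 214837_at and both SERPINC1 probe sets were called in all of the alternatives that tested them, 18, 18 and 19 settings. The call was lost in 2 of 19 alternatives for PROS1, 5 of 19 for APOE, 5 of 18 for FGB 216238_s_at, 9 of 18 for ALB 1565228_s_at, 10 of 18 for F5 204714_s_at and 11 of 19 for KNG1 206054_at. With quantile normalization the difference was 0.20 for F5 and 0.33 for FGB, and with cyclic loess it was 0.12 for ALB 1565228_s_at and 0.30 for APOE. For KNG1 206054_at it was 0.33 without the control array at 2 h or that at 24 h.

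At 12 h most member signals were lower than at 2 h. Of 70 tested member probe sets 56 were lower, against 15697 of all 27300 tested. The median difference was -0.25 over members and -0.05 over all tested probe sets. The median was -0.35 for acute phase proteins, -0.24 for inhibitors, -0.24 for clotting factors, -0.23 for apolipoproteins and -0.16 for carriers. These role medians were also below 0 with median centring and quantile normalization, and with cyclic loess for all but the carriers (0.02). Both 12 h arrays lay below both 2 h arrays for 42 member probe sets (26% of all tested) and above them for 3 (17.9%). Limma called 4 probe sets of 3 genes lower (0.495% of all tested) and 0 higher (0.667%), against 1.16% of all in either direction, and 32 had an unadjusted p under 0.05 (15% of all). Between 2 and 12 h the array's 99th percentile dropped by 0.19, the spike-in mean dropped by 0.41 and the 18S rRNA signal dropped by 2.97, and 501 of the 547 probe sets above the 99th percentile were lower. The part of these array differences in the members' values was not tested. The members' median remained below 0 with median centring (-0.21), cyclic loess (-0.12) and quantile normalization (-0.13).

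FGA, the alpha chain of fibrinogen, was lower at 12 h in 2 of its 3 tested probe sets. In 205650_s_at, near the top of the scale, the signal was 13.95, 13.67, 13.47 and 14.02 at 2, 4, 12 and 24 h with quercetin and 13.99, 13.83, 13.46 and 14.03 in control. The 12 h arrays were the lowest in both arms, and the difference from 2 h was -0.50 ± 0.09 (limma, adjusted p = 0.0126). At 24 h it was 0.06 ± 0.09. In 205649_s_at the 12 h values were 10.40 with quercetin and 10.64 in control and the 2 h values 11.05 and 11.43 (-0.72 ± 0.15, limma, adjusted p = 0.0336). The call was lost in 4 of 19 alternatives for 205650_s_at and in 12 of 18 for 205649_s_at. The third FGA probe set, 231671_at, differed by 0.01 ± 0.22. FGB (-0.43 ± 0.12 in 204988_at, limma, adjusted p = 0.0907) and FGG (-0.34 ± 0.08, limma, adjusted p = 0.0537) also read lower and did not pass.

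ITIH3, a heavy chain of the inter-alpha-trypsin inhibitor family that binds hyaluronan, read 12.71, 12.34, 12.27 and 12.75 with quercetin and 12.77, 12.47, 12.04 and 13.12 in control. The 12 h values were the lowest in both arms (-0.59 ± 0.13, limma, adjusted p = 0.04998), and the call was lost in 15 of 19 alternatives. ITIH2, another heavy chain, differed by -0.38 ± 0.09 (limma, adjusted p = 0.0596). The fourth call was ALB 214842_s_at (-1.98 ± 0.45, limma, adjusted p = 0.0487), lost in 14 of 18 alternatives and described below with the wide-ranging probe sets. The number of member genes called at 12 h was 3, and it was 0 without the quercetin array at 2 h, 8 without the control array at 2 h, 19 without the quercetin array at 12 h and 1 without either 4 h array. With the spike-in class of the arrays as a block it was 0. Calls over all 27300 tested probe sets also moved. They were 317 in the main fit, 227 and 229 without the control or the quercetin array at 4 h, and 41 with the spike-in block. They were fewer than in the main fit without the quercetin array at 2 h. Without the control array at 2 h or the quercetin array at 12 h they were more.

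At 4 h 49 of 70 member probe sets were lower than at 2 h, against 16631 of all 27300 tested probe sets. The median difference was -0.12 over members and -0.07 over all tested probe sets. Both 4 h arrays lay below both 2 h arrays for 40 (30.6% of all tested) and above them for 5 (14.7%). Limma called 0 of them in either direction (0.011% of all lower, 0% higher), with 20 at an unadjusted p under 0.05 (13.7% of all). The clotting factors had the lowest role median, -0.28 (-0.06 with cyclic loess, where the medians of the other roles were above 0), with PROS1 at -0.59 ± 0.17 and FGB at -0.43 ± 0.12 (204988_at), and C5, the complement component that starts the lytic pathway, differed by -0.53 ± 0.15. The median turned to 0.11 with cyclic loess and to 0.0018 with quantile normalization. Between 2 and 4 h the array's 99th percentile dropped by 0.245, and 514 of the 547 probe sets above the 99th percentile over all arrays were lower. Without the quercetin array at 2 h 3 genes were called higher at 4 h (ALB, APOA1 and APOC3), and without either 12 h array 4 were called lower (FGB, FGG, SERPINA5 and SERPIND1).

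**Figure D4:**
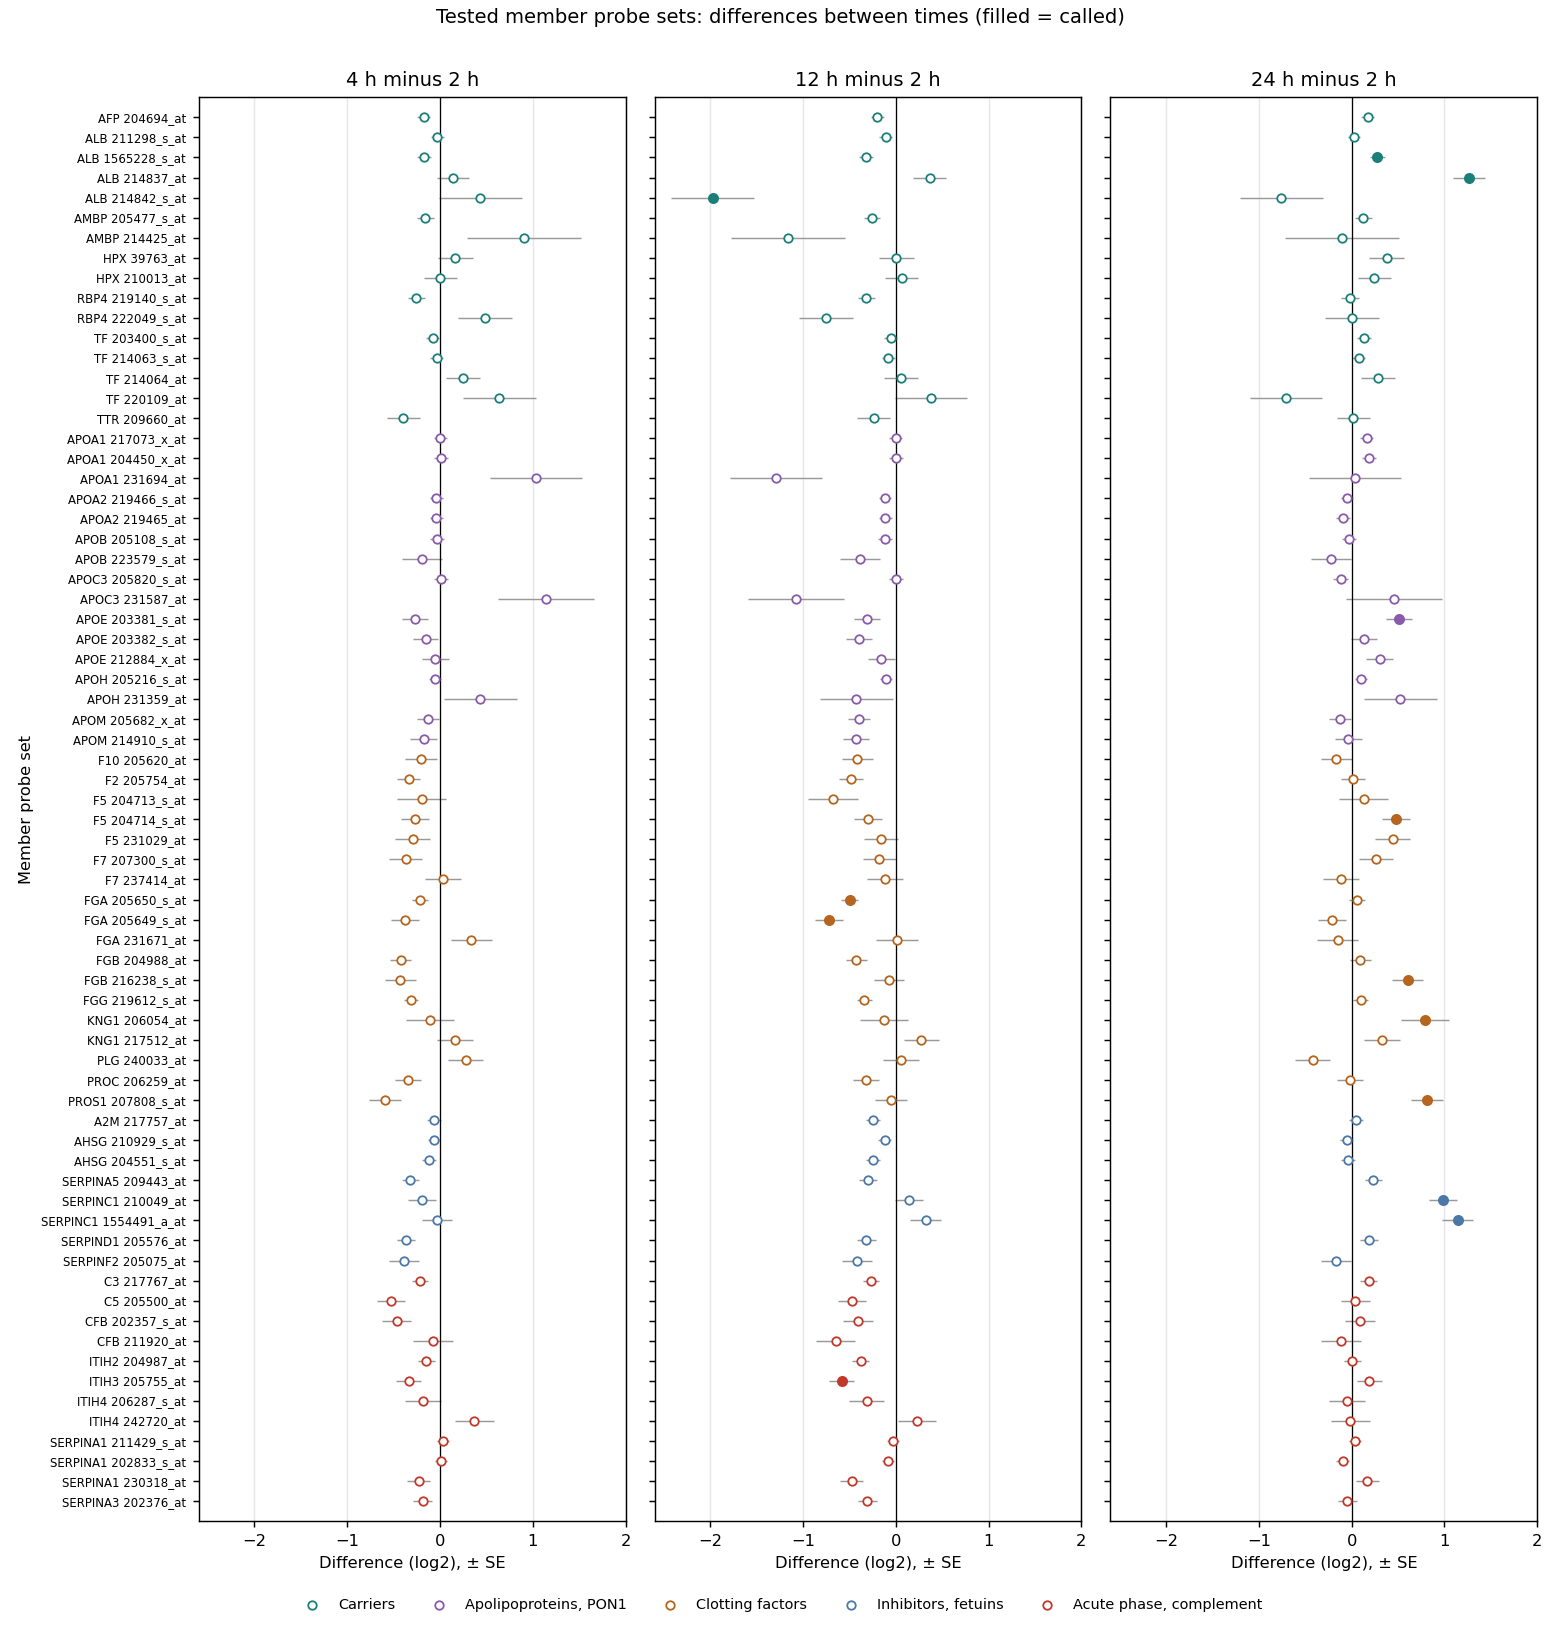
Differences of 4, 12 and 24 h from 2 h (log2, horizontal, with the SE as a bar) for the 70 tested member probe sets, ordered and coloured by role, with filled points for calls. At 24 h the 9 filled points lie to the right of 0, at 12 h the 4 filled points lie to the left, and at 4 h there is none.

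In 7 tested member probe sets the SD over the 8 arrays was above 0.6, a limit set after these values were seen. All 7 were dimmer probe sets of genes that also had a bright one, and 6 shared a pattern in part: ALB 214842_s_at, AMBP 214425_at, RBP4 222049_s_at, APOA1 231694_at, APOC3 231587_at and APOH 231359_at. In these 6, quercetin minus control was 1.43 to 2.60 at 2 h, 0.25 to 0.59 at 4 h and -1.97 to -0.02 at 24 h. RBP4 had the smallest differences at 2 and 24 h. The APOH control was not low at 12 h, with 9.14 against 8.59 at 2 h. AMBP, the precursor of alpha-1-microglobulin and bikunin, read 10.25, 10.19, 7.77 and 7.90 at 2, 4, 12 and 24 h with quercetin in 214425_at and 7.72, 9.60, 7.86 and 9.87 in control. In this AMBP probe set the control array at 2 h and both 12 h arrays were low, as was the quercetin array at 24 h. Its 2 arms crossed between early and late times. APOC3, which slows the clearance of triglyceride-rich particles, read 10.06, 10.10, 7.76 and 8.68 with quercetin in 231587_at and 7.47, 9.72, 7.61 and 9.77 in control. The bright probe sets of the same genes did not follow this course: AMBP 205477_s_at lay between 13.95 and 14.47 and APOC3 205820_s_at between 14.47 and 14.69 over all arrays.

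The second fit set the late quercetin differences (12 and 24 h) against the early ones (2 and 4 h). Among members 5 were called lower late than early (0.176% of all tested) and 1 higher (0.341%), against 0.516% of all in either direction, and 11 had an unadjusted p under 0.05 (5.44% of all). The 5 were AMBP 214425_at (-2.59 ± 0.37, limma, adjusted p = 3.91e-06), ALB 214842_s_at (-1.93 ± 0.29, limma, adjusted p = 6.51e-06), APOA1 231694_at (-1.98 ± 0.36, limma, adjusted p = 0.000346), APOC3 231587_at (-1.96 ± 0.37, limma, adjusted p = 0.00064) and APOH 231359_at (-1.65 ± 0.32, limma, adjusted p = 0.000962). RBP4 222049_s_at, of the plasma carrier of retinol, had -0.99 ± 0.32 and did not pass (limma, adjusted p = 0.234). The bright probe sets of ALB, AMBP, APOA1, APOC3 and APOH had differences from -0.08 to 0.06 on the same measure. The 1 called higher was TF 220109_at (1.71 ± 0.31, limma, adjusted p = 0.000411), which read 7.58, 7.71, 8.44 and 7.60 with quercetin and 7.81, 8.96, 7.71 and 6.38 in control. TF did not share the pattern of the other 6, and its brightest probe set, 203400_s_at, had 0.15 on the same measure.

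The 18S rRNA control signal had a similar course to the 6 wide second probe sets other than that of TF. It was 12.01, 11.62, 7.29 and 9.16 at 2, 4, 12 and 24 h with quercetin and 8.57, 11.52, 7.35 and 9.82 in control, and its late minus early difference was -2.13. Its part in the values of these probe sets was not tested. The model left 2 residual degrees of freedom and took 78.5 prior degrees of freedom from the other probe sets, and no member was called without the mean-variance trend, with cyclic loess or with quantile normalization. Without either 2 h array, which leaves 1 pair of early arrays, 2 genes were called, AMBP and TF.

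**Figure D5:**
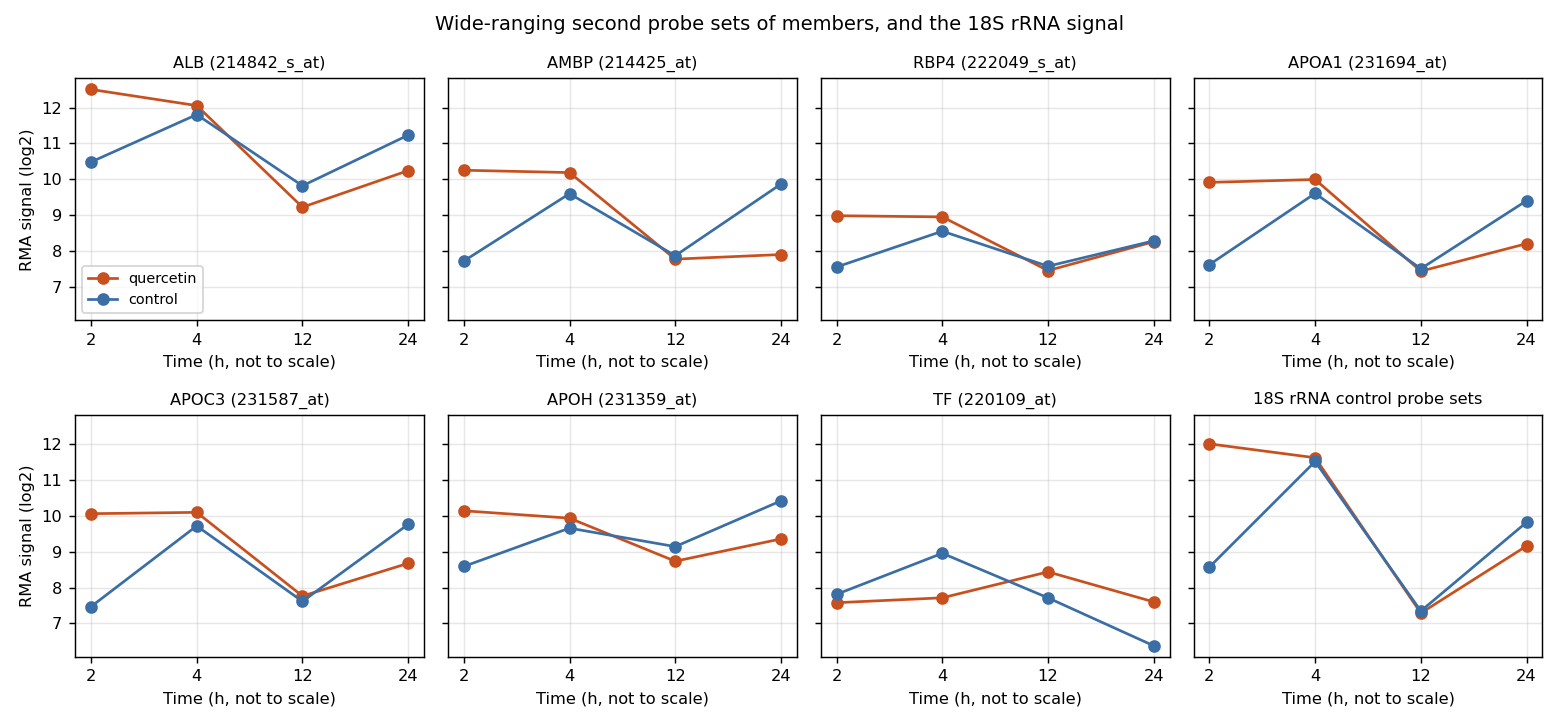
Log2 signal by time (not to scale) of 7 wide-ranging second probe sets of member genes and of the mean of the 18S rRNA control probe sets, quercetin in orange and control in blue, 1 array per point on a shared vertical axis. In the panels of ALB, AMBP, RBP4, APOA1, APOC3 and APOH the quercetin point at 2 h lies above the control point, as in the 18S panel (12.01 and 8.57 at 2 h), and the 12 h points are low in each of these but the APOH control.

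Of the 41 genes 15 had 1 probe set and 26 had at least 2, up to 4, and 22 had at least 2 that were tested. The probe sets of 1 gene disagreed in sign for 9 of these 22 genes in the comparison of 24 h with 2 h and for 13 in that of quercetin with control. Both SERPINC1 probe sets rose, so its call did not rest on the choice of probe set. ALB held calls in both directions, higher at 24 h in 214837_at and 1565228_s_at and lower at 12 h in 214842_s_at. A value for a gene with a single tested probe set, such as PROS1, TTR, F2 or C3, has no such comparison.

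Other genes of the same pathways were taken from lists of plasma proteins, of secretory machinery and of liver transcription factors, 1 probe set per gene. The mean quercetin difference over the 4 times was called for 0 members of each. The late minus early quercetin difference was called higher for 1 of 49 secretory genes (0.341% of all tested probe sets). It was TMED2 (1.49 ± 0.31, limma, adjusted p = 0.0036), which read 11.26 with quercetin and 9.34 in control at 12 h. In the other 2 lists this difference was called for 0 genes. Of 48 other tested plasma protein genes 5 were called higher at 24 h than at 2 h, C1S (0.87), ANGPTL4 (0.85), C4BPA (0.56), F11 (0.54) and CPB2 (0.51), against 12.7% of all tested probe sets, and 1 lower (4.15% of all), HAMP, the iron hormone hepcidin (-0.76). At 12 h 0 were called higher (0.667% of all) and 4 lower (0.495%): HAMP (-0.63), CP, ceruloplasmin (-0.60), TFPI (-0.51) and IGFBP1 (-0.50). Of 49 secretory genes 9 were called higher at 24 h (12.7% of all tested probe sets) and 2 lower (4.15%). The highest were SEC24B (1.55) and SEC24A (1.21), cargo adaptors of COPII vesicles, MTTP (0.89), which loads lipid onto APOB, TMED10 (0.70) and GGCX (0.64), the vitamin K dependent carboxylase, and the lower ones included PCSK6 (-1.25). Of 11 liver transcription factors CEBPD (1.77), NR0B2 (1.32) and FOXA3 (0.73) were called higher at 24 h (12.7% of all tested probe sets). CEBPA was called lower (-1.45 ± 0.15), against 4.15% of all. CEBPA read 12.03, 11.75, 11.40 and 10.67 at 2, 4, 12 and 24 h with quercetin and 12.13, 11.58, 11.02 and 10.58 in control, lower at each later time in both arms.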

How the data were processed

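Expression was measured in HepG2 cells on 8 Affymetrix 3′ arrays, 1 for each treatment and time. A table of log2 signals of 54675 probe sets was deposited by the authors. Per the submitters' processing notes these are RMA values; the sources used here name no version or settings. The table holds no detection or saturation flags, and RMA compresses differences of very bright and very dim probe sets. Of the probe sets 62 are Affymetrix controls, and 41091 of the other 54613 had 1 gene symbol, 1801 several and 11721 none in the platform annotation; 41037 symbols were updated through the Entrez identifier.

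The members and all gene lists were chosen with earlier results of these data known. Differences were tested with limma 3.58.1 under R 4.3.3, with eBayes moderation along a mean-variance trend. P-values were adjusted by Benjamini-Hochberg over the 27300 probe sets with a mean above the median, at a threshold of 0.05. The model held treatment and time as additive terms, which left 3 residual degrees of freedom, and a second model added a term for treatment at 12 and 24 h. Member values are given for every probe set. Genes of other lists are shown by 1 probe set, the brightest without an _x_ or _s_ suffix where it passes the filter, with up to 6 called members named. The top of the scale is the 99th percentile. Differences at 1 time were described by size, with 1 as the limit. Code was tested on simulated data. The number of arrays limits the precision. Alternatives were other filters, 1 value per gene, other scalings, moderation, array weights, spike-in class as a block and leaving out arrays. Promoters came from RefSeq (GRCh38.p14).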

Additional observations from a re-analysis of the deposited data

Results flagged for a closer look

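For 6 member probe sets limma called the quercetin minus control difference unlike at late and early times. Late times were 12 and 24 h and early times 2 and 4 h. The fit had 2 residual degrees of freedom and took 78.5 prior ones from the other probe sets. No member was called with cyclic loess, quantile normalization or eBayes without trend. Times within a class also differed: AMBP 214425_at had 2.53 and 0.59 early and -0.09 and -1.97 late. The late minus early values were -2.59 for AMBP 214425_at, -1.98 for APOA1 231694_at, -1.96 for APOC3 231587_at, -1.93 for ALB 214842_s_at, -1.65 for APOH 231359_at and 1.71 for TF 220109_at. All 6 are dimmer second probe sets of genes whose brightest probe set was not called. The 18S rRNA signal had a late minus early value of -2.13 over the same arrays, and its part in these values was not tested.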

How the results depend on the processing

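No member gene was called for the mean quercetin difference over the 4 times under any alternative. None of the named probe sets changed sign. For 24 h against 2 h the number of member genes called was 7, and it was 4 with the brightest probe set per gene, 2 with the mean over probe sets of a gene and 4 with eBayes without trend, and from 2 (without the control 24 h array) to 12 (without either 12 h array) when 1 array was left out. For 12 h it was 3, and it was 5 with a filter at the 75th percentile or the brightest probe set per gene, 1 with no filter, median centring, cyclic loess, quantile normalization, array weights or no treatment term, 0 with the mean over probe sets of a gene, eBayes without trend or the spike-in class as a block, and from 0 to 19 when 1 array was left out. For 4 h it was 0, and from 0 to 4 when 1 array was left out. For late minus early it was 6, and it was 3 with no filter, 1 with the brightest probe set per gene, 2 with the spike-in class as a block, 0 with the mean over probe sets of a gene, cyclic loess, quantile normalization or eBayes without trend, and from 2 to 8 when 1 array was left out. The median over members turned to -0.0143 (median centring) and -0.0083 (quantile) for quercetin, to -0.0702 (cyclic loess) and -0.0452 (quantile) for 24 h, to 0.1124 and 0.0018 for 4 h, and to -0.1092 and -0.0489 for late minus early, where the value as deposited was 0.0283. The cause of these changes was not tested. Each scaling moved the median of all tested probe sets by less than 0.1 in these comparisons. Beyond the pairing by time, which is in the fit as a block, the labels give no pairing. Replicate numbers are 1 for every array and define no further pairing. At 12 and 24 h the number of calls over all tested probe sets also moved when 1 array was left out. The lone array left at a time when the other was removed was assumed to vary like the rest.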

Other observations

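Probe sets shared between a listed gene and another were left out of every count above. The 2 annotated to ORM1 and ORM2, genes of the acute phase protein orosomucoid that are near copies of each other, lay at 13.93, 13.71, 13.89 and 14.02 at 2, 4, 12 and 24 h with quercetin and at 13.97, 13.75, 13.64 and 14.03 in control in 205041_s_at. In 214465_at they lay at 12.85, 12.71, 12.84 and 12.82 with quercetin and at 13.02, 12.68, 12.74 and 12.73 in control. A probe set annotated to both SEBOX and VTN, the gene of vitronectin, an adhesion protein of plasma, was at 12.37, 12.24, 12.52 and 12.83 with quercetin and at 12.49, 12.07, 11.90 and 13.18 in control. Both 24 h arrays lay above all the others in that probe set. In a dimmer probe set of the same pair of genes, 234256_at, the values were 7.90, 7.94, 7.66 and 7.75 with quercetin and 7.73, 7.92, 7.49 and 7.77 in control, with no 24 h value above the 4 h values. In both probe sets the signals of the genes that share them cannot be told apart.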
